A study of Danio rerio with 6 samples.

Results

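The genes *cry2*, *xpc* and *hlfb*, which are tied to the daily clock or to light, were followed across 6 zebrafish brain samples. Each is covered by 1 target on the array, so 3 of 38489 targets and 3 of 15377 named genes are described. A target stands for 1 transcript or sequence tag and is read by at most 3 oligonucleotide probes. The files name *cry2* by its older symbol *cry3*, *xpc* as *zgc:113032* and *hlfb* by a gene number, and current names come from RefSeq. The genes were chosen by their measured differences between lead and control samples, *cry2* and *xpc* being higher and *hlfb* lower. That difference is therefore given for them as a description, with no test.

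The 6 samples came from brains of female fish of the AB strain at 12 months of age, with total RNA labelled with Cy3 on one-colour arrays. The 3 control samples came from embryos held at 0 ppb lead and the 3 lead samples from embryos held at 100 ppb lead, given as lead acetate. Exposure ran from before 2 to 72 hours after fertilization. Both groups then grew up in clean water at 28 °C under 14 hours of light and 10 of dark. The time of day of dissection is not given in the sources used here, nor is whether the replicates came from separate tanks or clutches. Values are log2 of the deposited target intensity, differences are lead minus control, and n = 3 samples per group throughout.

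The clock of vertebrate cells is a loop in which CLOCK and BMAL proteins activate genes, and the products of some of these, the period and cryptochrome proteins, repress them in turn. Outputs of the loop include the PAR bZIP transcription factors, a family of *dbp*, *tef* and *hlf* genes whose proteins bind D-box elements in other genes. In zebrafish, most tissues hold clocks that respond to light directly, and D-box elements carry much of the light response. Several DNA repair genes, among them *xpc* and *ddb2*, are induced by light in zebrafish cells.

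All 6 arrays came from 1 scan and correlated with each other at 0.965 to 0.988 over all targets. Control and lead arrays lay at different positions of the scanned slide, so position and group cannot be told apart. The arrays had medians between 2100 and 2211. Background was set at the 95th percentile of the 27114 random probes of an array, which fell between 948 and 1312, and 59.8% to 66.7% of targets exceeded it. A target over this level is called above the random probes. No target passed an adjusted p of 0.05 in limma (0 of 38489, or 0%), while 1696 had an unadjusted p under 0.05 (4.41%, with 2.57% higher and 1.83% lower). Of all targets, 9.49% had groups that did not overlap, 5.74% with every lead sample higher and 3.75% with every lead sample lower.

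The cryptochrome *cry2* belongs to a family of flavoproteins related to DNA photolyases. Its namesake in mammals represses transcription by CLOCK and BMAL, and whether the zebrafish gene does so was not tested. Its target (OTTDART00000024839, chromosome 25, 11874898 to 11876980, in an assembly that is not given) read 13.02, 13.31 and 13.14 in control samples 1 to 3. In lead samples 1 to 3 it read 13.61, 13.73 and 13.49. The lowest lead sample lay 0.18 above the highest control sample, so the groups did not overlap. The mean was 13.16 ± 0.15 (SD, n = 3) in controls and 13.61 ± 0.12 in lead samples, a difference of 0.45 ± 0.14 (SE), or 1.37-fold.

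XPC is known in human cells as the protein that first recognises helix-distorting damage in global nucleotide excision repair. The *xpc* target (OTTDART00000022241, chromosome 8, 19660680 to 19683640, same unnamed assembly) read 11.90, 11.63 and 11.82 in control samples 1 to 3. It read 12.27, 12.41 and 12.11 in lead samples 1 to 3. Every lead sample was above every control sample, with a gap of 0.20 between the groups. The means were 11.79 ± 0.14 (SD, n = 3) and 12.26 ± 0.15, a difference of 0.48 ± 0.14 (SE), or 1.39-fold.

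The PAR bZIP factor *hlfb* is a zebrafish counterpart of the human transcription factor HLF, a D-box binding protein. Its target (ENSDART00000086536, Zv7 chromosome 12, 29831389 to 29837214) read 12.93, 12.74 and 12.80 in control samples 1 to 3. In lead samples 1 to 3 it read 12.37, 12.24 and 12.57. The order was the opposite of that of *cry2* and *xpc*, every lead sample lying below every control sample, with a gap of 0.17. The means were 12.83 ± 0.10 (SD, n = 3) and 12.39 ± 0.17, a difference of -0.43 ± 0.14 (SE), or 1.35-fold lower.

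**Figure D1:**
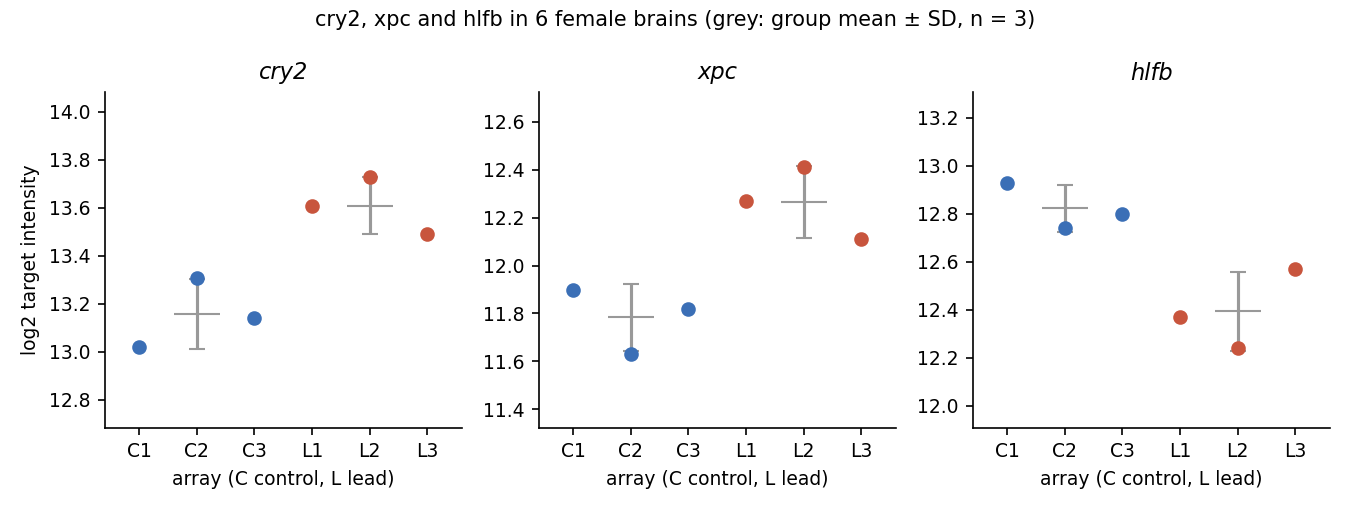
Log2 target intensity (vertical axis, its own range in each panel) of *cry2*, *xpc* and *hlfb* in control samples (C1 to C3, blue) and lead samples (L1 to L3, red). Grey bars are the group mean ± SD, n = 3. Lead samples lie above controls for *cry2* and *xpc* and below them for *hlfb*, with lead sample 2 farthest from the controls in each panel.

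Within the lead group the 3 genes ranked the samples alike. Lead sample 2 had the highest *cry2* and *xpc* and the lowest *hlfb*, and lead sample 3 lay nearest to the controls in all of them. Among the control samples *cry2* and *hlfb* again had opposite orders, with control sample 1 lowest for *cry2* and highest for *hlfb*, while *xpc* was lowest in control sample 2. Over the 6 samples the correlation of *cry2* with *hlfb* was -0.98, that of *cry2* with *xpc* 0.79 and that of *hlfb* with *xpc* -0.86. These values hold the group difference that chose the genes. After the group means were taken out they were -0.90, -0.08 and -0.33 over the same 6 samples. Of these pairs *cry2* and *hlfb* alone remained close to opposite. Opposite moves across the 6 samples were part of the choice of the genes, so these values too are a description only. The -0.08 of *cry2* and *xpc* pools the same order in lead samples with a reversed order in controls. The 3 readings of a sample share its RNA, its array and the scaling of that array.

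A single number per sample was made from the mean deviation of *cry2* and *xpc* from their 6-sample means, minus that of *hlfb*. It was -0.56, -0.36 and -0.41 in control samples 1 to 3, and 0.47, 0.74 and 0.13 in lead samples 1 to 3. The groups could not overlap, because each of its genes was chosen with groups apart in these directions. The lead samples were more spread out (0.45 ± 0.30, SD) than the controls (-0.45 ± 0.10). The difference was 0.89, and because it is taken within an array, a scaling that adds the same amount to all log2 values of an array leaves it as it is. Leaving out each sample in turn gave 0.75 to 1.05, and the sign of these values was fixed by the same choice.

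The residual SD of the 3 targets was 0.13 for *cry2*, 0.14 for *hlfb* and 0.15 for *xpc*, at percentiles 32.1, 25.3 and 22.6 among the 1000 targets of most similar mean intensity. Choosing genes whose groups do not overlap favours a low SD, so these percentiles are part of the choice.

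Each target was read by 3 probes, and single probes are other readings of the same samples. All 9 probes were above the random probes on all 6 arrays, and all 9 had groups that did not overlap, in the direction of their target. The share of all probes that did so is not given here. For *hlfb* the lowest control and highest lead sample read 13.91 and 13.88 at position 372, and 10.92 and 10.87 at position 564. For *xpc* the highest control and lowest lead sample read 12.06 and 12.11 at position 1137, and 11.82 and 11.87 at position 1728. The gaps were wider in the other probes. The differences were 0.56, 0.46 and 0.44 for *cry2*, 0.67, 0.33 and 0.46 for *xpc*, and -0.53, -0.34 and -0.45 for *hlfb*. The target value is itself a summary of these probes, so they are no independent reading of the difference that chose the genes.

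**Figure D2:**
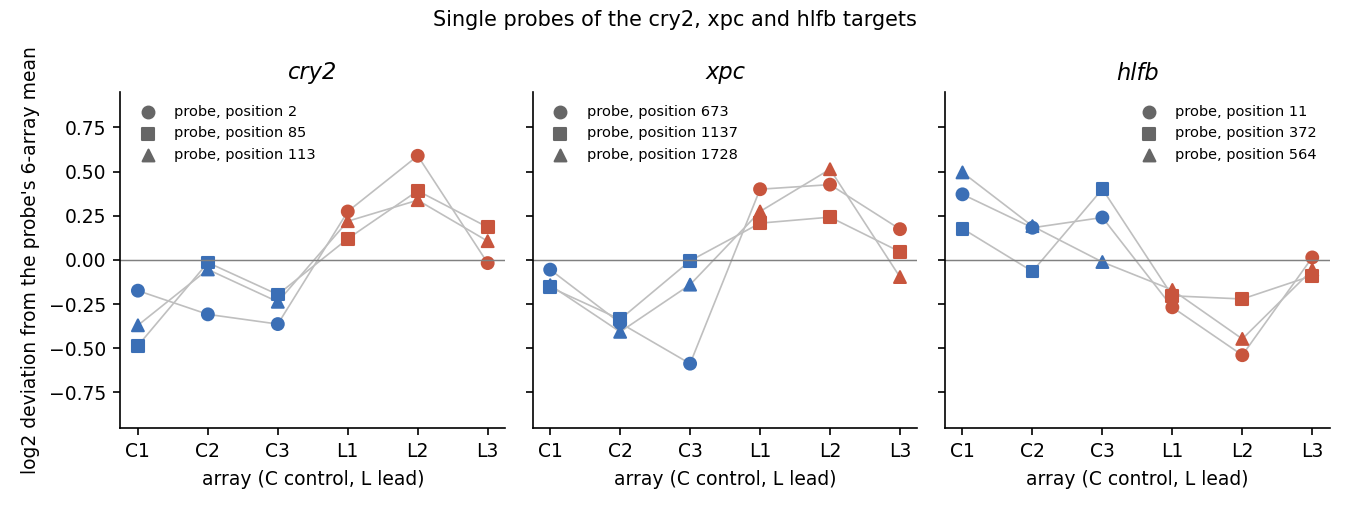
Deviation of each probe from its own mean over 6 arrays (log2, vertical axis), for the 3 probes of *cry2*, *xpc* and *hlfb*. Symbols are probes, labelled by the position the file gives, blue is control, red is lead and grey lines join a probe. All 9 probes separate the groups in the direction of their target, some of *hlfb* and *xpc* only narrowly.

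Another 4 targets share a UniGene cluster (a set of transcripts grouped as 1 gene) with *cry2* or *xpc* but carry no zebrafish symbol. Target AW115712, in a cluster with *cry2*, read 9.11, 9.20 and 8.66 in controls and 9.41, 9.24 and 9.49 in lead samples. Its companion AW115712_R read 9.81, 9.98 and 9.22 in controls and 10.20, 9.99 and 10.17 in lead samples. Lead samples were higher in both, by 0.39 ± 0.18 and 0.45 ± 0.21, but the groups were separated by only 0.04 and 0.02. The first lay under the random probes on every array and the second was above them on 2 of 6, and the files list the human homologue of both as EWSR1 rather than a cryptochrome.

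The cluster of *xpc* gave a less uniform picture. TC253544 (Zv7 chromosome 8, 24419613 to 24423805) read 11.91, 11.44 and 11.95 in controls and 12.41, 12.35 and 11.70 in lead samples. Lead samples 1 and 2 were above all controls and lead sample 3 was below control samples 1 and 3, so the groups overlapped around a difference of 0.39 ± 0.24. TC263371 (24441786 to 24442574) read 11.11, 11.87 and 11.49 in controls and 10.74, 11.65 and 11.55 in lead samples. It differed by -0.18 ± 0.30 with overlapping groups, so of the 3 targets tied to *xpc* 1 separated the groups. Single probes of the other 2 disagreed, with differences of -0.37, 0.26 and 0.58 in TC253544 and 0.41, -0.52 and -0.05 in TC263371. The probes at 0.58 and 0.41 had every lead sample higher, and the groups overlapped for the rest. The probe at -0.37 was under the random probes on every array. Which transcripts these 2 targets read was not tested.

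**Figure D3:**
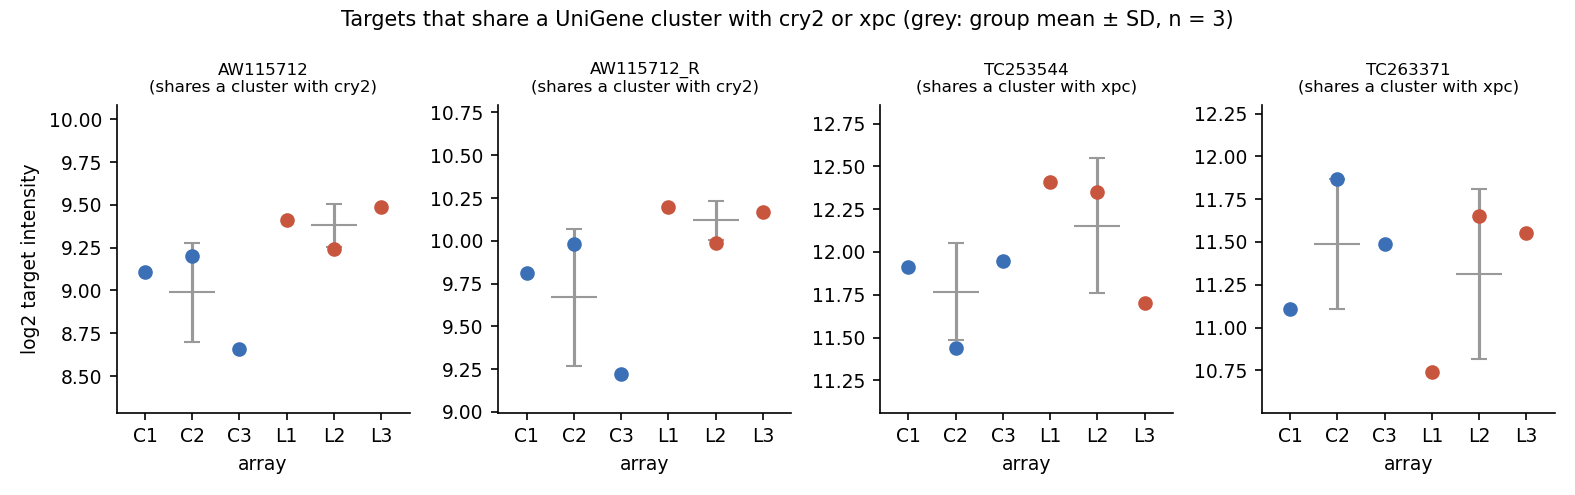
Log2 target intensity (vertical axis, its own range in each panel) of the 4 targets that share a UniGene cluster with *cry2* or *xpc*, in control (blue, C1 to C3) and lead samples (red, L1 to L3). Grey bars are mean ± SD, n = 3. The *cry2* cluster targets separate the groups by at most 0.04, and the *xpc* cluster targets overlap.

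The rest of the clock, the light response and nucleotide excision repair was described through 9 lists holding 123 genes beside the 3 above. The lists were chosen with earlier results of these data known. Of the 123 genes, 66 were measured, 50 of them above the random probes on every array. Lead samples were higher on average for 47 of the 66 (71.2%) and lower for 19, against 50.5% higher among all targets and 54.5% among named genes. The median difference was 0.14, against 0.00 over all targets and 0.02 over named genes. None of the 66 passed limma's adjusted threshold, and 2 had an unadjusted p under 0.05 (3.03%, against 4.41% of all targets). Groups did not overlap for 13 (19.7%, against 9.49% of all targets), and in all 13 the lead samples were higher. The gaps between the groups were 0.00 to 0.16. Whichever sample was left out, 1 to 6 of the list genes without overlap were lower, so the single direction held only with all 6 samples. Without control sample 1, 15 were higher and 6 lower, and without control sample 2, 24 and 4. Smaller groups overlap less often, and 15.8% to 25.2% of all targets then did not overlap.

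**Figure D4:**
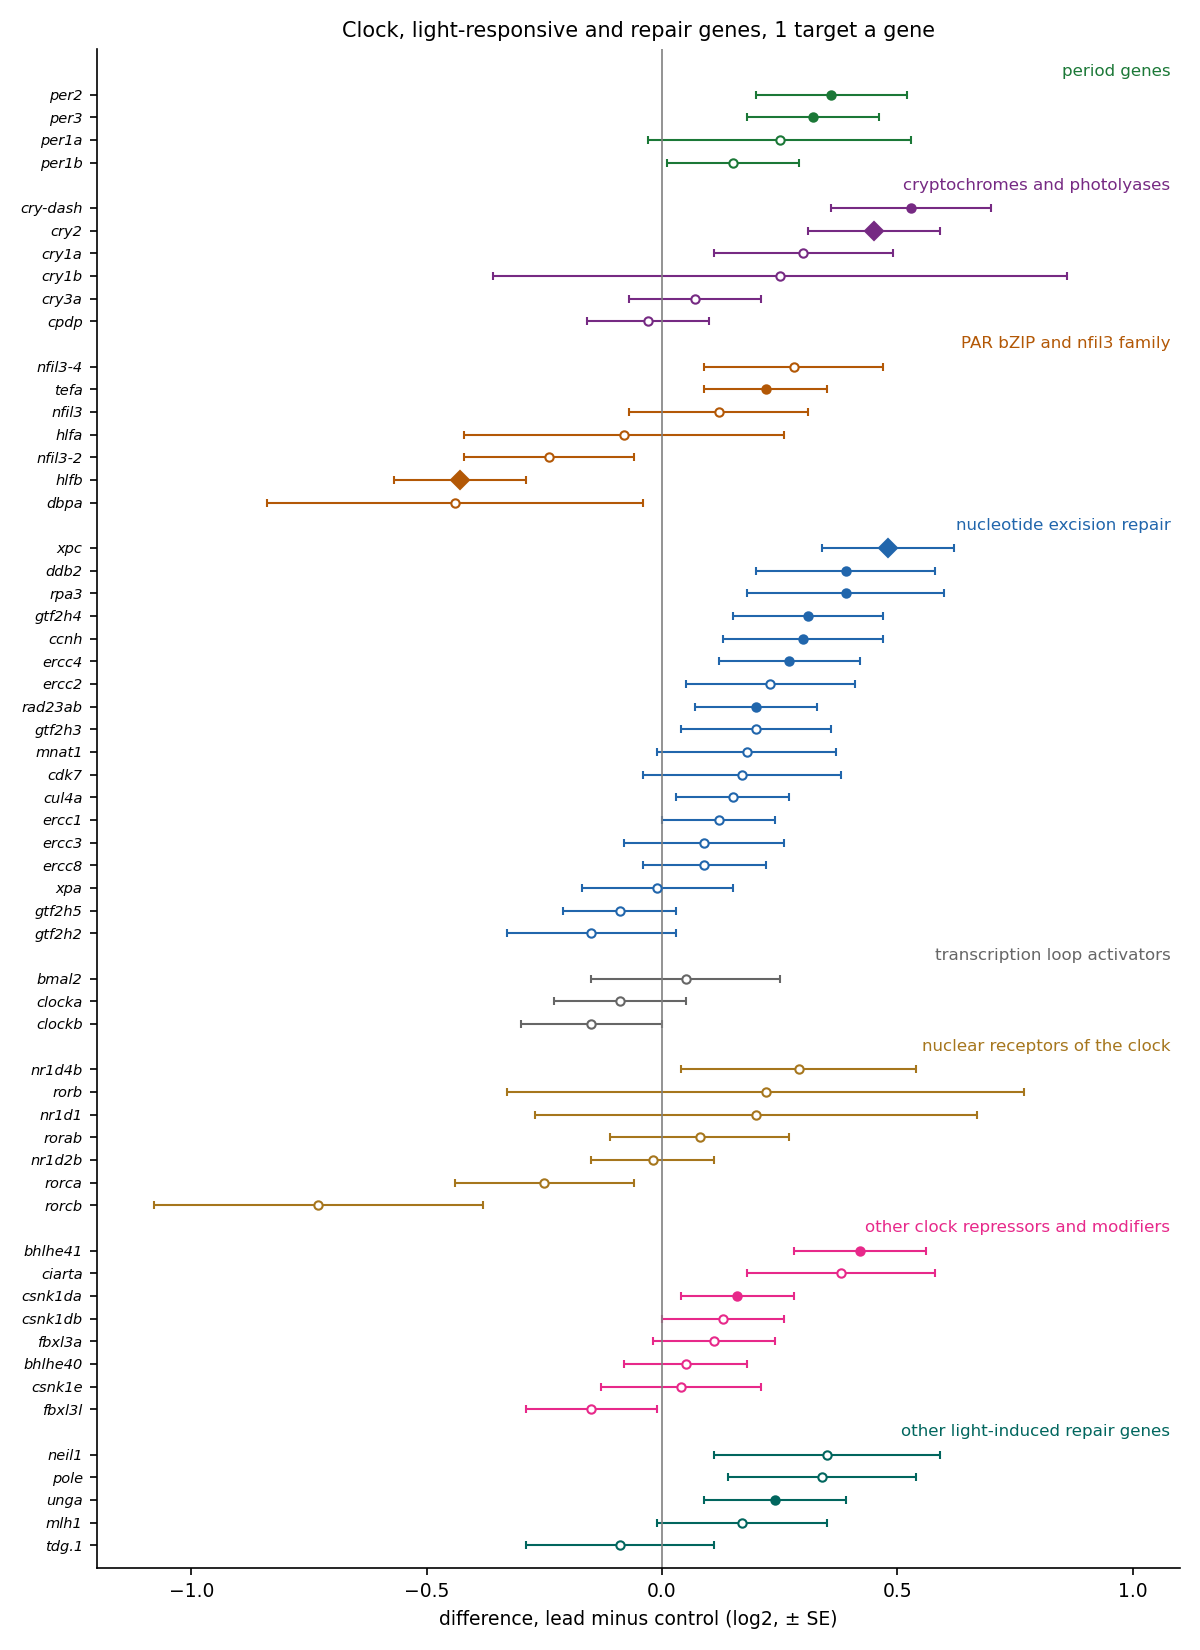
Difference between lead and control (log2 target intensity, horizontal axis, ± SE, n = 3 per group) for *cry2*, *xpc*, *hlfb* (diamonds) and the measured genes of 8 lists, 1 target per gene. Filled symbols mark groups that did not overlap. Most period, cryptochrome and excision repair genes lie to the right of 0, and *hlfb* and *dbpa* lie farthest to the left in their list.

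Among the cryptochromes and photolyases, 4 of 5 measured relatives of *cry2* were higher in lead samples, with a median of 0.25. The gene *cry-dash*, which encodes a DASH-type cryptochrome, read 12.27, 12.62 and 12.36 in controls and 12.67, 13.14 and 13.05 in lead samples. The groups did not overlap, and the difference was 0.53 ± 0.17 (unadjusted p = 0.0187, adjusted p = 0.958 in limma). For *cry1a*, read by 2 targets, both differed by 0.30 with overlapping groups. *cry1b* differed by 0.25 ± 0.61, with control samples between 10.00 and 12.31, and *cry3a* by 0.07 ± 0.14. The photolyase gene *cpdp*, whose product repairs pyrimidine dimers with light, differed by -0.03 ± 0.13.

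All 4 *period* genes, the partners of cryptochromes in the repressor complex, had a higher mean in lead samples, and none passed the test. *per2*, which light induces in zebrafish, read 11.21, 11.43 and 11.45 in controls and 11.48, 11.93 and 11.76 in lead samples. *per3* read 12.99, 13.34 and 13.19 in controls and 13.37, 13.58 and 13.53 in lead samples. Both separated the groups by 0.03, with differences of 0.36 ± 0.16 and 0.32 ± 0.14, but a second *per3* target overlapped at 0.15 ± 0.16. *per1a* and *per1b* differed by 0.25 ± 0.28 and 0.15 ± 0.14, with overlapping groups.

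Of the other repressors and modifiers 7 of 8 were higher on average, with a median of 0.12. The gene *bhlhe41*, a basic helix-loop-helix repressor of clock genes also known as *dec2*, read 13.84, 14.20 and 13.93 in controls and 14.36, 14.48 and 14.39 in lead samples. All lead samples were above all controls, with a difference of 0.42 ± 0.14 (unadjusted p = 0.0208, adjusted p = 0.958 in limma), and a second target gave 0.44 ± 0.13 with groups that did not overlap. *ciarta*, a relative of the mammalian repressor CIART, differed by 0.38 ± 0.20 with overlapping groups. The casein kinase gene *csnk1da* differed by 0.16 ± 0.12 with a gap of 0.00 between the groups.

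The activators of the loop gave small differences, -0.09 ± 0.14 for *clocka*, -0.15 ± 0.15 for *clockb* and 0.05 ± 0.20 for *bmal2*, all with overlapping groups. Of 7 nuclear receptor genes of the clock 4 were higher and 3 lower, and the groups overlapped for all 7. The best known of them as a repressor, *nr1d1*, was above the random probes on 2 arrays and differed by 0.20 ± 0.47. *nr1d2b* differed by -0.02 ± 0.13, and *rorcb*, also above the random probes on 2 arrays, by -0.73 ± 0.35.

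Differences in the family of *hlfb* had both signs, with 3 of 6 measured relatives higher, 3 lower and a median of 0.02. *dbpa* read 11.06, 11.84 and 12.45 in controls and 10.98, 11.11 and 11.95 in lead samples, and *hlfa* read 12.57, 13.78 and 13.50 against 13.23, 12.81 and 13.56. Both overlapped between groups and spread widely within them, with differences of -0.44 ± 0.40 and -0.08 ± 0.34. *tefa* was higher in lead samples by 0.22 ± 0.13 with groups that did not overlap, and a second *tefa* target differed by 0.53 ± 0.27 with groups that did. Genes of *nfil3* factors, which compete for the same D-box elements, differed by 0.12, -0.24 and 0.28, the last under the random probes on every array. The difference between *hlfb* and each relative was not tested.

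Among genes of nucleotide excision repair, 14 of 17 beside *xpc* were higher on average in lead samples, with a median of 0.18. This was 82.4%, against 54.5% of named genes at 1 target per gene and 50.5% of all targets. Groups did not overlap for 6 (*rad23ab*, *ddb2*, *ercc4*, *gtf2h4*, *ccnh* and *rpa3*), or 35.3%, with lead samples higher. In that direction they did not overlap for 1021 of 15377 named genes and 5.74% of all targets. The gaps between the groups were 0.01 for *ercc4* and *gtf2h4* and 0.04 to 0.10 for the other 4. Of the 6, *ccnh* and *rpa3* were above the random probes on only 5 arrays. At 1 target per gene, 0 of the 17 had an unadjusted p under 0.05 in limma. The list was chosen with earlier results of these data known, and its genes share the same 6 arrays, so these shares are a description only. DDB2, which hands certain lesions to XPC in human cells, had 2 targets, and in each the groups did not overlap. Both carry the same coordinates, and the files list their human homologues as TLE genes rather than DDB2. The first read 13.07, 13.26 and 13.28 in controls and 13.38, 13.96 and 13.43 in lead samples (difference 0.39 ± 0.19, unadjusted p = 0.0774 in limma). The second read 12.42, 12.93 and 12.84 against 13.13, 13.42 and 13.16 (difference 0.51 ± 0.18, unadjusted p = 0.0255, adjusted p = 0.958 in limma). RAD23 proteins, the partners of XPC in lesion recognition, were represented by *rad23ab*, which differed by 0.20 ± 0.13.

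Genes of later steps of excision repair had differences of both signs. *rpa3*, a subunit gene of the single-strand binding protein RPA, differed by 0.39 ± 0.21, and *ccnh*, the cyclin gene of the TFIIH kinase, by 0.30 ± 0.17. Both fell under the random probes in control sample 3. *rpa3* read 10.80, 10.74 and 10.08 in controls and 11.02, 10.88 and 10.89 in lead samples. The nuclease gene *ercc4* read 11.08, 11.08 and 10.96 in controls and 11.34, 11.51 and 11.09 in lead samples, a difference of 0.27 ± 0.15. Its partner *ercc1* differed by 0.12 ± 0.12, and *xpa*, whose product verifies the damage, by -0.01 ± 0.16. Of the genes of TFIIH, which opens the helix, *gtf2h4* differed by 0.31 ± 0.16, *ercc2* by 0.23 ± 0.18, *gtf2h3* by 0.20 ± 0.16 and *ercc3* by 0.09 ± 0.17. *mnat1* and *cdk7*, also of TFIIH, differed by 0.18 ± 0.19 and 0.17 ± 0.21. *gtf2h2* and *gtf2h5* were lower on average, by -0.15 ± 0.18 and -0.09 ± 0.12. At 1 target per gene, the groups overlapped for all of these but *rpa3*, *ccnh*, *ercc4* and *gtf2h4*. A second *cdk7* target differed by 0.22 ± 0.13, with lead samples higher and a gap of 0.06 between the groups. Of 5 other repair genes, 4 were higher, and *unga*, a uracil-DNA glycosylase gene, differed by 0.24 ± 0.15 with a gap of 0.01 between the groups.

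**Figure D5:**
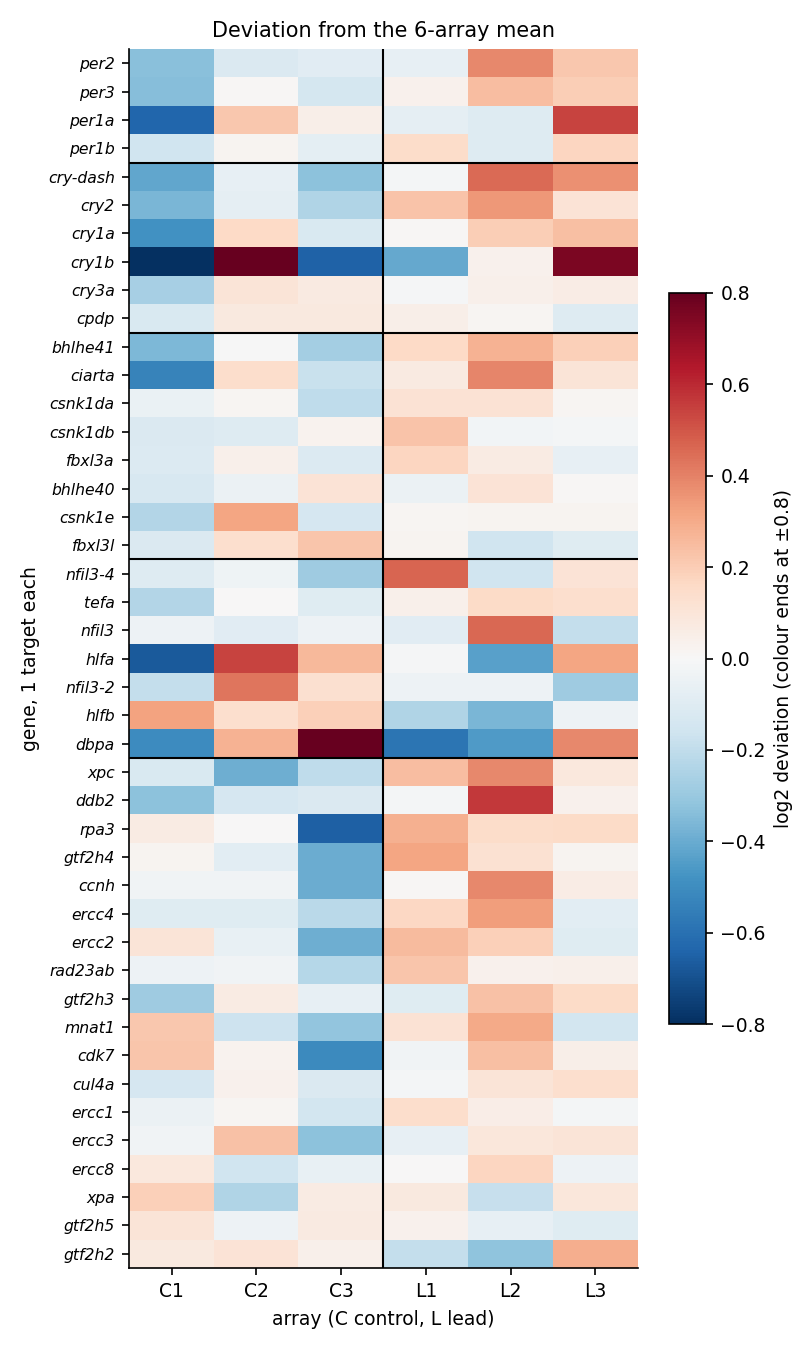
Deviation of each gene from its own mean over 6 arrays (colour, log2, ends at ±0.8) in control (C1 to C3) and lead samples (L1 to L3). Horizontal lines part the lists, from the top the period genes, cryptochromes and photolyases, other repressors and modifiers, the PAR bZIP and *nfil3* family, and nucleotide excision repair, each sorted by its difference. The rows of *cry2*, *bhlhe41*, *per3* and *ddb2* are lowest in control sample 1 and highest in lead sample 2, and the row of *hlfb* is the reverse.

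Over the 6 samples *cry2* ran closest, among the list genes, to *bhlhe41* (r = 0.973), *tefa* (0.924), *per3* (0.915), *ciarta* (0.894) and *cry-dash* (0.881). For *hlfb* the most opposite list genes were *bhlhe41* (-0.908), *ercc4* (-0.898) and *ddb2* (-0.875). For *xpc* the closest were *ercc4* (0.850), *ercc8* (0.762) and *ddb2* (0.753). Of 50 list genes above the random probes on every array, 40 correlated positively with *cry2* (80%), 34 with *xpc* (68%) and 11 with *hlfb* (22%). Among all 9278 named genes above the random probes the shares were 58.1%, 59.4% and 41.0%. These correlations hold the group difference that chose the 3 genes. The samples differ by group, array and RNA at once, so these values describe 6 points only.

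Of 9278 named genes above the random probes on every array, those most like *cry2* over the 6 samples were *commd3* (r = 0.996), *nelfe* (0.993), *pcid2* (0.991) and *ndufs6* (0.990). Those most like *hlfb* were *si:ch211-208g1.1* (0.998), *atp7a* (0.989), *si:dkeyp-67e1.4* (0.982) and *fkbp3* (0.977). Those most like *xpc* were *elp4* (0.997), *mettl2a* (0.989), *LOC559368* (0.969) and *sec24a* (0.969). With this many genes and 6 points, high values are found for any pattern. The copper transporter gene *atp7a* read 12.75, 12.15 and 12.53 in controls and 11.31, 11.15 and 11.92 in lead samples, a difference of -1.02 ± 0.25. Like *hlfb* it was highest in control sample 1, lowest in lead sample 2 and nearest to the controls in lead sample 3.

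In a whole brain, fewer cells of a type and less RNA per cell cannot be told apart. All 7 measured neuron markers exceeded the random probes on each of the 6 arrays. Their summed level was 208501 to 209237 in controls and 213684 to 225339 in lead samples, so the sums did not overlap and lead samples were higher. The median over these markers of the deviation from their 6-sample means separated the groups less well. It was -0.02, 0.00 and -0.07 in controls and 0.04, 0.00 and 0.03 in lead samples, with control sample 2 and lead sample 2 level. The 7 measured radial glia and astroglia markers, 6 of them above the random probes on every array, summed to 159634 to 181664 in controls and 153412 to 185363 in lead samples. Of 8 measured pineal and photoreceptor markers 1 (*rom1a*) exceeded them on 6 arrays and 6 on none, and the summed level was 6056 to 7752 in controls and 5724 to 7819 in lead samples. Of 11 measured genes of non-visual opsins and melatonin synthesis, only 3 were above the random probes on every array. Among the 11, 6 were higher and 5 lower in lead samples, with a median of 0.03, and the groups overlapped for all 11. Much of this list is thus signal near the random probes.

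In other marker lists the samples farthest out included control sample 1 and lead sample 2, which stood at the ends of the *cry2* and *hlfb* ranges. Of 7 measured red blood cell markers, 5 were above the random probes on every array. Their summed level was 71554 to 89400 in controls and 35747 to 75708 in lead samples. Their median deviation was 0.66, 0.30 and 0.42 in controls and 0.30, -0.98 and -0.63 in lead samples. Lead sample 3, nearest to the controls for *cry2* and *hlfb*, was thus low, and lead sample 1 equalled control sample 2. The 9 measured pituitary markers, of which *pomca* was above the random probes on every array, summed to 10569 to 92461 in controls and 8343 to 18725 in lead samples. Their median deviation was 2.15 in control sample 1, the sample with the lowest *cry2* and the highest *hlfb*, and -0.72 to 0.02 in the others. The 4 oligodendrocyte markers, all above the random probes on every array, summed to 100352 to 110403 in controls and 85963 to 109950 in lead samples. Their median deviation was 0.18, 0.01 and -0.09 in controls and 0.07, -0.38 and 0.11 in lead samples. The part of these and the other marked cell types in the differences of *cry2*, *xpc* and *hlfb* was not tested. Without control sample 1 the differences were 0.38, 0.54 and -0.38, and without lead sample 2 they were 0.39, 0.40 and -0.35, in that order.

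The authors' deposited table of 94 altered targets holds none of the targets of *cry2*, *hlfb* and *xpc*, and none of the other list genes.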

How the data were processed

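Messenger RNA was measured on one-colour NimbleGen arrays in 3 control and 3 lead brain samples. The authors deposited 1 RMA intensity per target and array, on a linear scale, and RMA is named in the submitters' processing notes without a version. Whether the 6 arrays were normalized with others is not given in the sources used here. The authors also deposited 113549 probe intensities per array and a table of 94 altered targets. Per the file headers, its columns are a signed fold score, a p-value and a log2 ratio.

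Target intensities were taken to log2 without a filter or an added constant. Lead was compared with control by limma 3.58.1 in R 4.3.3 (two-sided, Benjamini-Hochberg over 38489 targets, threshold 0.05), and p-values measure the spread between these samples, which may be technical. The number of arrays limits the precision, and the median SE of a difference was 0.18. The fit was tested on simulated data. RefSeq names (assembly GRCz12tu) paired 21264 targets with 15377 symbols, counting 6412 targets whose symbol in the files is not in the reference table. A gene with several targets is represented by the one with the highest mean. Named genes were list genes, the 4 genes most like each member and targets sharing a member's UniGene cluster.

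The members and lists were chosen with earlier results of these data known. Alternatives covered median centring, repeated quantile normalization, the median of the probes, a filter on dim targets, a test without moderation, the mean over targets of a gene, the replicate number as a block and leaving out each sample. Summaries used pandas 2.3.3 and numpy 2.4.6 under Python 3.11.15, and figures matplotlib 3.10.9.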

Additional observations from a re-analysis of the deposited data

How the results depend on the processing

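The differences of *cry2*, *xpc* and *hlfb* and the number that combines them ranged over 0.38 to 0.53, 0.40 to 0.55, -0.53 to -0.35 and 0.75 to 1.05 under the 11 alternatives tried for each. Their direction cannot change when 1 sample is left out, since genes whose groups do not overlap were chosen, and is no sign of stability. The count of targets past the adjusted threshold in limma was 0 under all 12 alternatives. The count at an unadjusted p under 0.05 ranged from 1063 to 3098 when 1 sample was left out (3098 without control sample 2, 1075 without control sample 3 and 1063 without lead sample 1), against 1696 with all. Of the 66 list genes, 2 had an unadjusted p under 0.05, and this became 4 with the median of the probes and 0 to 9 when 1 sample was left out. It was 0 without control sample 1, control sample 3 or lead sample 2, and 9 without control sample 2. The count of list genes with groups that did not overlap, recomputed in an alternative chosen after seeing the data, was 18 to 28 when 1 sample was left out (21 without control sample 1, of which 6 lower, and 28 without control sample 2, of which 4 lower), where smaller groups overlap less often and 15.8% to 25.2% of all targets did not overlap. Replicate numbers are shared between the groups, and same-numbered samples deviated together at 0.31, 0.03 and -0.05. Samples with different numbers were not compared in this way, so whether same-numbered samples share more than a number was not tested. With the replicate number as a block, 4 list genes and 2035 targets had an unadjusted p under 0.05. In this balanced design a block leaves the differences as they are, at 0.45, 0.48 and -0.43 for *cry2*, *xpc* and *hlfb*. The number of arrays and the distance of a signal from the random probes limit what could be seen. The cause of these changes was not tested.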

Other observations

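Some targets carry no zebrafish symbol and are tied to the clock only by a human homologue in the files, and they were looked at after values had been seen. A target with the homologue CRY2 (ZV700S00000108, Zv7 chromosome 10, 36177907 to 36193210) read 11.56, 12.16 and 11.87 in controls and 12.55, 12.82 and 13.12 in lead samples. Every lead sample was above every control sample, and the difference was 0.97 ± 0.21 (n = 3 per group, unadjusted p = 0.00269 in limma, not past the adjusted threshold). The 7 other targets with a cryptochrome homologue differed by -0.07 to 0.47. The 2 targets with the homologue PER2 share a UniGene cluster. TC263196 read 11.79, 12.49 and 11.99 in controls and 12.63, 12.69 and 12.78 in lead samples, and the other differed by 0.36 ± 0.17.

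Targets with an activator as homologue included lower values. ZV700S00004362 (homologue ARNTL, the human name of BMAL1) read 11.77, 11.80 and 12.13 in controls and 11.01, 11.54 and 11.49 in lead samples, a difference of -0.55 ± 0.19. TC235372 (NPAS2 or CLOCK) differed by -0.43 ± 0.16, and the groups did not overlap in either. Groups did not overlap for 9.49% of all targets. A second ARNTL target differed by -0.23 ± 0.21 and a second CLOCK target by 0.53 ± 0.26, both with overlapping groups. The target with the homologue NR1D2 differed by -0.02 ± 0.38, also with overlap. All 3 targets with the homologue NFIL3 were lower on average, by -0.64 to -0.20. Of these ZV700S00006730 read 11.19, 11.46 and 11.41 in controls and 10.82, 10.86 and 10.45 in lead samples. Every lead sample of it was lower, with a gap of 0.33 (unadjusted p = 0.00558 in limma, n = 3 per group). The rest share a UniGene cluster, and their groups overlapped, at -0.20 ± 0.35 and -0.26 ± 0.30. Of 5 targets with the homologue HLF 4 were higher, by 0.14 to 0.33, with overlapping groups. These 4 share UniGene clusters in pairs, so they may not read separate genes. The remaining HLF target differed by -0.25 ± 0.19, with overlapping groups. None of the targets tied to the clock by a homologue passed the adjusted threshold.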
